A study of Homo sapiens with 10 samples.

Results

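Genes of the hypoxia response and of glycolysis were followed across a change of MEOX2, a homeobox transcription factor, in both directions. The set held 38 genes of the 34567 in the deposited expression table and was chosen by gene symbol: 16 glycolytic enzymes, 3 transporters of glucose or lactate, 3 regulators of glycolytic flux, 2 HIF subunits, 3 oxygen sensors or HIF feedback genes and 11 further HIF target genes. RNA was sequenced from 10 libraries of human glioma cell lines, all grown in DMEM with serum and with no low-oxygen treatment named. SNB19 cells carried either scramble siRNA (NC, n = 3) or an siRNA against MEOX2 (siMEOX2, n = 3). U87 cells carried an empty vector lentivirus (EV, n = 2) or a MEOX2 overexpression lentivirus (OE, n = 2). The siRNA change is transient and the labels do not say which siRNA was used, whereas the lentiviral U87 cells were made as stable lines. The 2 arms therefore differ in cell line, delivery and control, and these cannot be told apart. The labels do not say whether libraries of a group came from separate cultures, so p-values measure the spread between these libraries only.

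When oxygen is plentiful, prolyl hydroxylases mark the alpha subunits of the hypoxia-inducible factors HIF1A and EPAS1 for destruction, and this control acts on the protein rather than on the transcript. When oxygen falls, the stabilised subunits bind the core letters ACGTG or GCGTG near their targets and raise genes of glucose uptake, glycolysis, lactate export, pH control and mitophagy. Glioma cells are known for high glycolytic flux with lactate release even in air, and CA9 is widely used as a marker of hypoxic tumour tissue.

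The promoters below belong to the 6 genes with the largest changes among those called in either comparison that have an entry. They were picked by the size of the change and not by the letters they hold. Each line gives 250 bases before and 50 bases after the first start that RefSeq (GRCh38.p14) lists for the gene, 300 bases in all, 5′ to 3′ on the gene's strand. Capitals mark ACGTG or GCGTG on either strand, with overlapping matches joined. CA9 lies at chr9:35673678-35673977, plus strand. ALDOC lies at chr17:28576846-28577145, minus strand and SLC16A3 at chr17:82228185-82228484, plus strand. The window of PFKFB4 is chr3:48556754-48557053, minus strand, that of LDHA is chr11:18394313-18394612, plus strand, and that of BNIP3 is chr10:131981874-131982173, minus strand.
CA9: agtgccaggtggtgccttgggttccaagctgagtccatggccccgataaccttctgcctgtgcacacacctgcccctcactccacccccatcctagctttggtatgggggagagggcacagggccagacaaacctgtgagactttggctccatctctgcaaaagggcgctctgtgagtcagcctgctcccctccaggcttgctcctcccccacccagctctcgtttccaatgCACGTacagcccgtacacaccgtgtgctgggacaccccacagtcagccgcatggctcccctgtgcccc
ALDOC: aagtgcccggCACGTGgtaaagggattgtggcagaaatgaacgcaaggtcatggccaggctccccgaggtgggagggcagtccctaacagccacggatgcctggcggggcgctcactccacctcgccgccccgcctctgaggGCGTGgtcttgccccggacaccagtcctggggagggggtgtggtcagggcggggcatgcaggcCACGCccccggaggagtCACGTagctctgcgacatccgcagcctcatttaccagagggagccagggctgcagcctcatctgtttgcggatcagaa
SLC16A3: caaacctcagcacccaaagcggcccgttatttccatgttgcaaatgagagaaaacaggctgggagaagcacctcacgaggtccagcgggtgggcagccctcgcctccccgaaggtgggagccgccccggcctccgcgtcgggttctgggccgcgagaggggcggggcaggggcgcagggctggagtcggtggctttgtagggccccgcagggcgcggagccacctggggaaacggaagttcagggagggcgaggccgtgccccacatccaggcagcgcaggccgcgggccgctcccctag
PFKFB4: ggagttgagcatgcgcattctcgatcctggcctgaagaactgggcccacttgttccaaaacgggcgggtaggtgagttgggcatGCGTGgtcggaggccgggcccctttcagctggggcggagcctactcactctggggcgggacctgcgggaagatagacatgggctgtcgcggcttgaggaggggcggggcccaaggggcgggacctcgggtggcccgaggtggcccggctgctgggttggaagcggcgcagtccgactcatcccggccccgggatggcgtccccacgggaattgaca
LDHA: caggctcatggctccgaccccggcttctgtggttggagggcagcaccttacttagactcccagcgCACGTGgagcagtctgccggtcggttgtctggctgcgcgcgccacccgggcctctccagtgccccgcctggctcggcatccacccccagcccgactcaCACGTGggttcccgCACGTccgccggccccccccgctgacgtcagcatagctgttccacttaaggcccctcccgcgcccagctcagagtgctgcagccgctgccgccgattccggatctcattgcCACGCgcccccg
BNIP3: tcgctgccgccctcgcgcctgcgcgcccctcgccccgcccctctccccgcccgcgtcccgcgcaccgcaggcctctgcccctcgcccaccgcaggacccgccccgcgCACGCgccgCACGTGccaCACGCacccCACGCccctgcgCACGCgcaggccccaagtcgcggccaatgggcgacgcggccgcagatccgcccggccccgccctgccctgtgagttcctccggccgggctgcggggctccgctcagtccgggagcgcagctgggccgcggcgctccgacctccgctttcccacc

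The CA9 window held 1 match, which began 18 bases before the start. ALDOC and LDHA held 4 matches each, BNIP3 held 5, PFKFB4 held 1 and SLC16A3 held 0 in the windows shown. Both SLC16A3 and LDHA have further starts. For SLC16A3, starts 2, 4 and 5 held 2, 3 and 1 matches and start 3 held 0. For LDHA, start 2 held 1. Across the set, 35 of 38 genes had an entry, with 65 starts between them, and NDRG1, BNIP3L and SLC2A3 had none. A match was present in 44 of these 65 windows (67.7%) and in 48.4% of all 35116 windows of the same length. The homeobox letters TAATTA, searched on both strands, were in 0 of the 65 windows and in 4.84% of all windows. Several starts of the same gene, as in HK1 and PFKM, each count as a window and can overlap, so the windows are not independent. All 35116 windows likewise come from 27305 genes. These are matches of letters and not evidence of binding.

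MEOX2 itself followed the labels. It had 249, 224 and 275 counts in the NC libraries against 54, 40 and 49 in the siMEOX2 libraries, a log2 fold change of -2.42. It had 0 counts in both EV libraries and 4999 and 5308 counts in the OE libraries. The libraries held 12533775 to 16560324 gene counts each. The first EV library stood apart: ribosomal protein genes took 13.0% of its counts against 4.04% to 6.68% in the other libraries, its TMM composition factor was 0.69 against 0.95 to 1.13, and its rank correlation with the second EV library was 0.941 where every other pair within a group reached at least 0.993. Between the EV libraries, 9 of the 38 genes differed by more than 2-fold (CA9, PFKFB3, ALDOA, HK2, TPI1, EPAS1, PGAM1, ENO1 and KDM3A), and the largest difference was 3.39-fold, in CA9. The main results on U87 are therefore given with EV 1 and without it. The 9 glioma and astroglial markers summed to 214 to 216 FPKM in NC, 108 to 113 in siMEOX2, 761 and 330 in EV 1 and EV 2, and 199 to 201 in OE, and S100B was at 0 in U87. The 9 markers of other cell types summed to 1.34 to 6.99 FPKM in every library, and the part of either list in the results was not tested.

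Most of the named values below are TMM-scaled CPM, that is counts relative to the total of the library after correction for composition, and fold changes come from edgeR's quasi-likelihood test with Benjamini-Hochberg adjustment over the 17312 genes that passed a filter on low counts. A gene is said to rise or fall where the adjusted p was below 0.05. All 38 genes passed the filter, EGLN3 only through SNB19. In bulk RNA, fewer cells that use a gene and less of its RNA per cell cannot be told apart.

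Silencing MEOX2 in SNB19 cells raised 7 of the 38 genes and lowered 2. The glucose transporter SLC2A3, the stress gene NDRG1 and the hexokinase HK2 were higher by more than 2-fold, and PFKFB4, BNIP3, PDK1 and P4HA1 rose less. PKM, the pyruvate kinase of the last step of glycolysis, fell by more than 2-fold, and the membrane carbonic anhydrase CA12 fell as well. The 7 that rose were 18.4% of the set against 6.99% of all genes tested, and the 2 that fell were 5.26% against 8.75%. The median log2 fold change was 0.22 over the set and -0.00 over all genes.

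**Figure D1:**
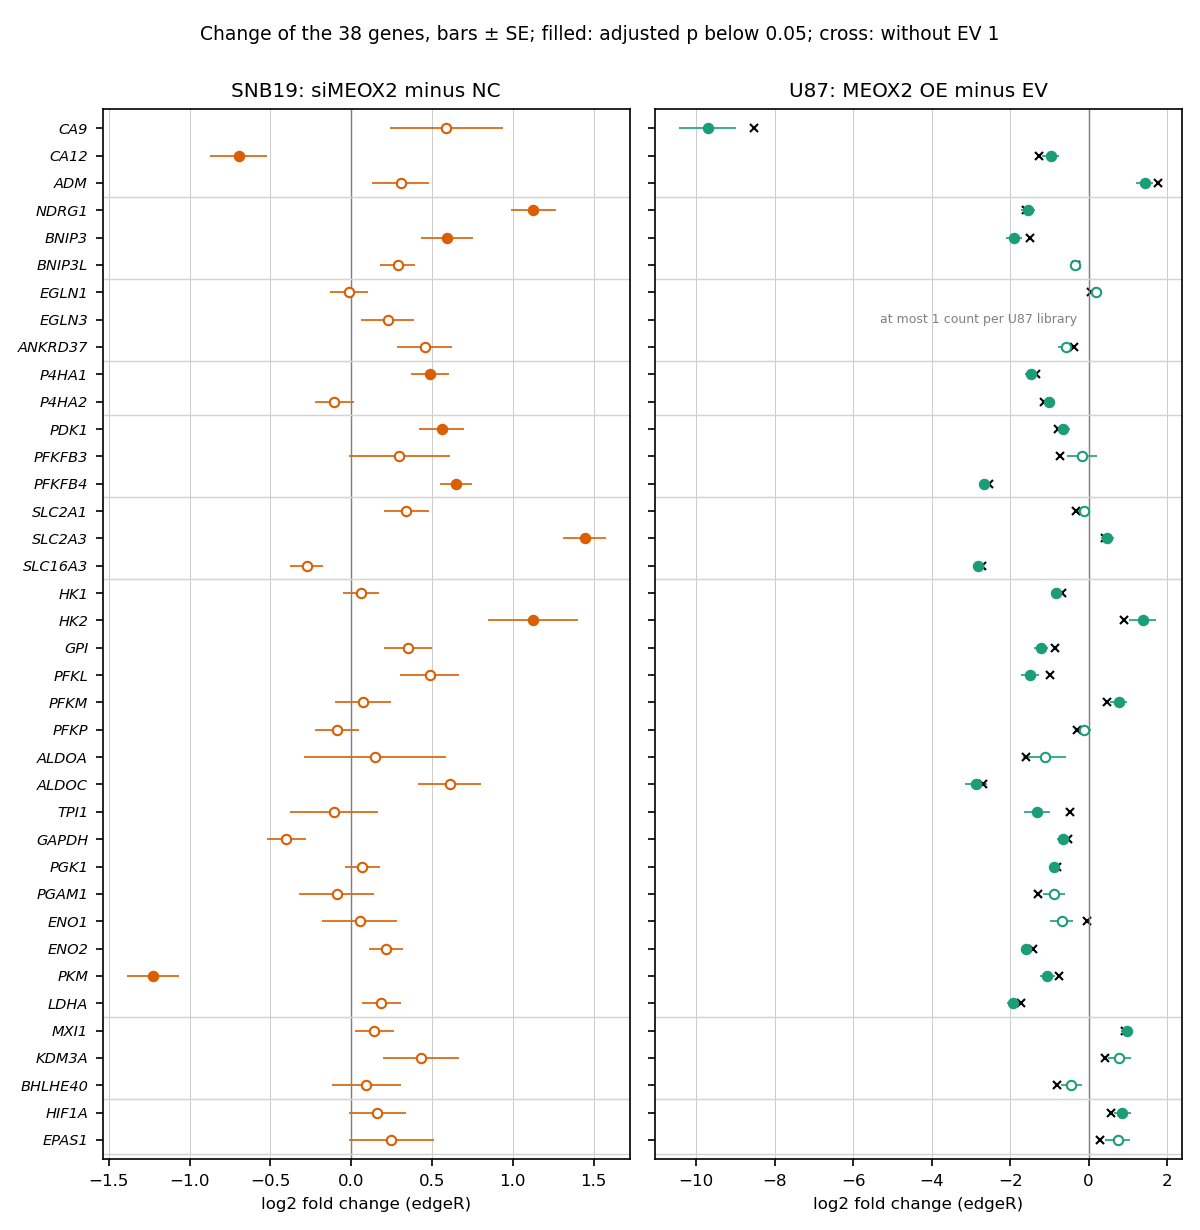
The log2 fold change of each of the 38 genes is plotted with its standard error, for siMEOX2 minus NC in SNB19 on the left and OE minus EV in U87 on the right, with filled points where the adjusted p was below 0.05 and crosses for the value without EV 1. The 2 panels have different scales, and CA9 lies far to the left of all other genes in U87.

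SLC2A3, a high-affinity glucose transporter (chr12:7919230-7936275 on GRCh38), stood at 22.4, 20.7 and 22.7 CPM in NC and at 52.4, 67.8 and 58.9 CPM in siMEOX2. Its log2 fold change was 1.44 ± 0.13 (SE, adjusted p = 0.000349). SLC2A1, the transporter that most cells use for basal glucose uptake, gave 273, 254 and 263 CPM in NC against 317, 349 and 335 CPM in siMEOX2. The groups did not overlap for either transporter, yet SLC2A1 missed the threshold at 0.34 ± 0.14 (SE, adjusted p = 0.133).

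HK2, the inducible hexokinase that traps glucose in the cell (chr2:74833981-74893359), was at 109, 105 and 105 CPM in NC and 207, 241 and 249.8 CPM in siMEOX2, a log2 fold change of 1.13 ± 0.28 (SE, adjusted p = 0.0251). HK1, its constitutive relative, changed by 0.06 on the log2 scale. PFKFB4, which makes and removes the activator of phosphofructokinase, had 71.4, 71.6 and 73 CPM in NC and 113, 113 and 113 CPM in siMEOX2. The libraries of each group lay close together, and the log2 fold change was 0.65 ± 0.10 (SE, adjusted p = 0.0032). PDK1, which shuts pyruvate out of the mitochondrial cycle, had 21.6, 20.9 and 22.1 CPM in NC and 28.1, 32.9 and 34.2 CPM in siMEOX2, at 0.56 ± 0.14 (SE, adjusted p = 0.0252).

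NDRG1, a gene induced by stress and differentiation, had 522, 451 and 519 CPM in NC. It had 914, 1157 and 1186 CPM in siMEOX2, with every library of this group above every control. The log2 fold change was 1.13 ± 0.14 (SE, adjusted p = 0.00128). BNIP3, a receptor that targets mitochondria for degradation, gave 109, 100 and 101 CPM in NC and 151, 159 and 158 CPM in siMEOX2, at 0.59 ± 0.16 (SE, adjusted p = 0.0354). P4HA1, the catalytic subunit of a collagen hydroxylase, rose by 0.49 on the log2 scale, whereas its relative P4HA2 gave -0.10 with overlapping groups.

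PKM (chr15:72199029-72231822) was among the most abundant of the 38 genes and dropped from 6239, 6166 and 6092 CPM in NC to 2910.1, 2530.1 and 2448 CPM in siMEOX2. The log2 fold change was -1.23 ± 0.16 (SE, adjusted p = 0.00168). CA12 gave 44.8, 41.7 and 44.6 CPM in NC and 26.3, 26.1 and 28.5 CPM in siMEOX2, at -0.70 ± 0.18 (SE, adjusted p = 0.0284). Its relative CA9 went the other way in its values, from 47.4, 40.4 and 49.6 CPM to 63.5, 70.1 and 73.2 CPM, but missed the threshold at 0.59 ± 0.35 (SE, adjusted p = 0.303).

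The HIF subunits themselves did not pass in this fit. HIF1A (chr14:61695513-61748259) had 259, 246 and 272 CPM in NC and 266, 304 and 300.0 CPM in siMEOX2, with overlapping groups and 0.16 ± 0.18 (SE, adjusted p = 0.6). EPAS1, which encodes HIF-2 alpha (chr2:46293667-46386703), had 213, 216 and 206 CPM and 222, 266 and 267 CPM, at 0.25 ± 0.26 (SE, adjusted p = 0.589). Of the other genes given by rule, LDHA, which turns pyruvate into lactate, had 39.4, 38.6 and 40.6 CPM in NC and 44.8, 44.1 and 46.1 CPM in siMEOX2, at 0.19 ± 0.12 (SE, adjusted p = 0.34). PGK1, a step of glycolysis that makes ATP, overlapped between groups, with 991, 965 and 1000.5 CPM and 999, 1034 and 1065 CPM, at 0.07 ± 0.11 (SE, adjusted p = 0.746). GAPDH, often used as a reference gene, had 2134, 2128 and 2149 CPM in NC and 1696, 1575 and 1577 CPM in siMEOX2 with no overlap, at -0.40 ± 0.12 (SE, adjusted p = 0.0518).

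The fit above shares its estimate of spread with U87, where EV 1 stands apart. Fitted on the 6 SNB19 libraries alone, 22 of the 38 genes rose (57.9%, against 27.4% of the 15525 genes tested) and 4 fell (10.5%, against 28.5%). All 9 calls of the joint fit were among these 26. The added genes included CA9 at 0.60, SLC2A1 at 0.36, LDHA at 0.20 and both HIF subunits, HIF1A at 0.18 and EPAS1 at 0.26, on the high side, and GAPDH at -0.39 and SLC16A3 at -0.26 on the low side. In the joint fit, SLC2A3, NDRG1, PFKFB4 and PKM kept their calls whichever SNB19 library was left out. BNIP3, CA12 and HK2 lost theirs without any 1 of the 6 libraries, and P4HA1 and PDK1 lost theirs without any 1 of them other than siMEOX2 replicate 1.

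Raising MEOX2 in U87 cells lowered 19 of the 38 genes and raised 6. CA9 was nearly lost, and ALDOC, SLC16A3 and PFKFB4 fell by more than 5-fold with or without EV 1. Along glycolysis, 10 of the 16 enzymes fell (ALDOC, LDHA, ENO2, PFKL, TPI1, GPI, PKM, PGK1, HK1 and GAPDH) and 2 rose (HK2 and PFKM). ADM, MXI1, HIF1A and SLC2A3 rose too. The 19 that fell were 50% of the set against 14.9% of all genes tested, and the 6 that rose were 15.8% against 11.3%. The median log2 fold change was -0.76 over the set and -0.02 over all genes, and -0.73 and 0.05 without EV 1. Without EV 1, where the remaining EV library is assumed to vary like the other groups, 26 genes fell (68.4%, against 18.4% of 18318 genes) and 8 rose (21.1%, against 20.4%). Without EV 2, the median log2 fold change was -0.60 over the set and 0.05 over all genes. All 25 calls stayed, in direction and significance, both without EV 1 and without EV 2. With OE replicate 1 left out, 16 of the 25 calls were kept, and with OE replicate 2 left out, 17. CA12, GAPDH, HIF1A, HK2, PDK1, PFKM, SLC2A3 and TPI1 lost their calls in both cases, and PKM also without OE replicate 1.

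CA9 (chr9:35673856-35681159) had 260.0 and 76.6 CPM in EV 1 and EV 2 and 0.166 and 0.216 CPM in the OE libraries. These were 3941 counts over both EV libraries against 5 over both OE libraries. The ratio of the normalised sums was 832 (95% exact interval 356 to 2564, counting error only), and 397 (170 to 1227) with EV 2 alone. The log2 fold change was -9.71 ± 0.73 (SE, adjusted p = 7.15e-05) and -8.53 without EV 1. CA12 fell by a much smaller amount, from 118 and 198 CPM to 84.1 and 77.4 CPM, at -0.97 ± 0.21 (SE, adjusted p = 0.0115), and -1.26 without EV 1 and -0.52 without EV 2.

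SLC16A3, the exporter of lactate in cells with high glycolysis, had 194 and 181 CPM in EV and 27.8 and 25.8 CPM in OE. Its log2 fold change was -2.81 ± 0.13 (SE, adjusted p = 1.05e-05), and -2.72 without EV 1. LDHA, which makes that lactate, had 2745 and 2215 CPM in EV and 641 and 663 CPM in OE, at -1.93 ± 0.15 (SE, adjusted p = 8.22e-05) and -1.72 without EV 1. Both genes of lactate output were thus lower in OE by more than 3-fold, with or without EV 1.

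ALDOC, a brain-enriched aldolase that splits fructose 1,6-bisphosphate, had 14.5 and 12.3 CPM in EV and 1.16 and 2.45 CPM in OE, at -2.87 ± 0.29 (SE, adjusted p = 0.000244), and -2.69 without EV 1. ENO2, an enolase enriched in neurons, had 228 and 193 CPM in EV and 72.3 and 67.7 CPM in OE, at -1.59 ± 0.13 (SE, adjusted p = 0.000116), and -1.42 without EV 1. The main enolase ENO1 showed how much EV 1 can decide: it had 10210.0 and 4982 CPM in EV and 4439 and 4989 CPM in OE, with a log2 fold change of -0.69 that became -0.04 without EV 1. TPI1 kept its call but moved from -1.32 to -0.48. PKM had 5564 and 3959 CPM in EV and 2275 and 2319.8 CPM in OE, at -1.05 ± 0.20 (SE, adjusted p = 0.00541), and -0.74 without EV 1.

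PFKFB4 dropped from 69.4 and 62.5 CPM in EV to 10.9 and 10 CPM in OE, at -2.65 ± 0.13 (SE, adjusted p = 1.2e-05), and -2.54 without EV 1. BNIP3 had 385 and 243 CPM in EV and 83.2 and 85.2 CPM in OE, at -1.90 ± 0.20 (SE, adjusted p = 0.000348), and -1.49 without EV 1. NDRG1 had 445 and 505 CPM in EV and 161 and 163 CPM in OE, at -1.55 ± 0.17 (SE, adjusted p = 0.000458), and -1.60 without EV 1. In each of these 3 genes both OE libraries lay below both EV libraries.

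The genes that rose did so from the same libraries. HK2 had 96.1 and 243 CPM in EV and 459 and 426 CPM in OE, at 1.38 ± 0.34 (SE, adjusted p = 0.0182), and 0.90 without EV 1. HIF1A had 225 and 374 CPM in EV and 552 and 529 CPM in OE, at 0.85 ± 0.22 (SE, adjusted p = 0.0203), and 0.57 without EV 1. The transcript of this HIF subunit was thus higher in OE, where 19 of the 38 genes were lower. EPAS1 had 199 and 475 CPM in EV and 586 and 540.2 CPM in OE, at 0.74 ± 0.32 (SE, adjusted p = 0.115) with both EV libraries. It passed when either was left out, at 0.29 without EV 1 and 1.54 without EV 2, and when no filter on low counts was applied. ADM, a secreted vasodilator peptide and HIF target, rose by 1.43 (1.77 without EV 1), and MXI1, an antagonist of MYC, by 0.97 (0.93).

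SLC2A1 had 91.7 and 131 CPM in EV and 101 and 104 CPM in OE, with both OE values between the EV values, at -0.12 ± 0.17 (SE, adjusted p = 0.613). Its sign depended on the EV library, with -0.31 without EV 1 and 0.19 without EV 2. PGK1 had 1256 and 1234 CPM in EV and 645 and 715 CPM in OE, at -0.87 ± 0.13 (SE, adjusted p = 0.00217), and -0.82 without EV 1. GAPDH had 3007 and 2676 CPM in EV and 1708 and 1894 CPM in OE, at -0.66 ± 0.15 (SE, adjusted p = 0.0125), and -0.53 without EV 1. The oxygen sensor EGLN1 had a log2 fold change of 0.18 (0.06 without EV 1) and did not pass, and EGLN3 had at most 1 count in any U87 library.

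Fitted on the 4 U87 libraries alone, edgeR called 0 of 14180 genes, with 2643 genes and 19 of the set at an unadjusted p below 0.05. DESeq2, fitted on all 10 libraries, called all 25 of the genes that edgeR called there. Scaling by library size alone, which shifts the median of all genes by 0.16 in this comparison, left 16 genes lower and 4 higher, and in SNB19 1 lower and 8 higher.

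All 9 genes called on silencing were also called on overexpression, which is 100% of the first list and 36% of the second. The comparisons share no library but come from 1 fit with a shared estimate of spread, so the lists are not independent. Over all genes tested, 1046 were called in both, 38.4% of the genes called on silencing and 23.0% of those called on overexpression. Of these 1046, 251 moved in opposite directions and 795 the same way. Of the 9 genes of the set, 5 moved in opposite directions (NDRG1, PFKFB4, BNIP3, PDK1 and P4HA1). These 5 were higher with less MEOX2 and lower with more. The other 4 moved the same way in both lines: SLC2A3 and HK2 rose in both, and PKM and CA12 fell in both. In U87 SLC2A3 passed only narrowly, at 0.48 ± 0.16 (SE, adjusted p = 0.0494, edgeR). It lost this call by library size scaling, with no filter on low counts, and with the replicate number as a block, paired or crossed. CA12 and PDK1 lost their U87 calls by library size scaling, by limma on log2(FPKM + 1) and with the block as numbered, and PDK1 also with no filter. Whether the change from the lower to the higher MEOX2 arm differed between lines was tested for every gene. It was larger in SNB19 (more positive or less negative) for 17 of the 38 genes (44.7%, against 14.2% of all genes) and smaller for 6 (15.8%, against 10.2%). Without EV 1 these counts were 23 (60.5%, against 21.8%) and 8 (21.1%, against 21.3%).

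Among the 4 genes that moved the same way in both lines, PKM gave 2.28 ± 0.25 (SE, adjusted p = 0.000377, edgeR) for SNB19 minus U87, being higher with more MEOX2 in SNB19 and lower with more in U87. CA12 had the same pattern at 1.67 ± 0.28 (adjusted p = 0.00292, edgeR). HK2, at -2.51 ± 0.44 (adjusted p = 0.00374, edgeR), and SLC2A3, at -1.92 ± 0.20 (adjusted p = 0.000294, edgeR), had the opposite one. Among the genes with opposite responses to silencing and overexpression, PFKFB4 (2.00), BNIP3 (1.30) and P4HA1 (0.98) fell by more in U87 than they differed in SNB19, whereas the differences for NDRG1 (0.42 ± 0.22) and PDK1 (0.08 ± 0.22) did not pass. Without EV 1, NDRG1 passed at 0.47 and PDK1, at 0.22, did not.

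Levels per gene length, in FPKM as deposited, allow members of a family to be compared. FPKM is scaled by total counts, so the composition of EV 1 is not corrected there, while shares within a library do not depend on it. HK2 made up 11.9% ± 0.13 (SD, n = 3) of the hexokinase sum in NC and 22.0% ± 1.4 in siMEOX2. In U87 it was 13.5% and 31.7% in EV 1 and EV 2 and 58.7% and 57.2% in OE, so that the OE cells were the only group in which HK2 exceeded HK1. SLC2A3 made up 5.997% ± 0.18 of the SLC2A1 and SLC2A3 sum in NC and 12.02% ± 0.88 in siMEOX2, and 49.3% and 44.4% in EV against 57.0% and 56.8% in OE. PFKL, the liver-type phosphofructokinase, went from 11.4% to 15.8% of the phosphofructokinase sum in SNB19, and from 44.7% and 23.8% in EV to 14.8% and 14.1% in OE. PFKM, the muscle type, rose to 25.7% and 26.4% in OE from 9.71% and 15.6% in EV. The platelet type PFKP remained the largest part in every library. An exact permutation test cannot go below p = 0.1 for 3 against 3 libraries or p = 0.333 for 2 against 2, so these shares are given as values.

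The control libraries of the lines differed for 22 of the 38 genes and for 9843 of the 17312 genes tested, a similar share. Line, vector and transfection cannot be told apart in this contrast. SNB19 NC was higher than U87 EV for 5 genes (13.2%, against 28.1% of all genes) and lower for 17 (44.7%, against 28.8%). EGLN3, 1 of the 5, passed the filter on low counts only through SNB19, where it is high, and is no support for that count. Without EV 1 these were 8 (21.1%, against 32.5%) and 22 (57.9%, against 30.9%). LDHA (chr11:18394388-18408425) was 62.7-fold lower in SNB19, at -5.97 ± 0.15 (SE, adjusted p = 7.65e-08), and -5.81 without EV 1. In FPKM it was 6.7 ± 0.2 (SD, n = 3) in NC and 323 ± 23 (SD, n = 2) in EV. LDHB, the other subunit of the enzyme, did not fill the gap: the LDHA and LDHB sum was 7.96 to 10.7 FPKM in SNB19, of which LDHB was 13.3% to 21.7%, and 311 and 341 FPKM in the EV libraries.

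EGLN3, a HIF-induced prolyl hydroxylase (chr14:33924231-34462774), had 36.8, 35.5 and 39.3 CPM in NC and 0 counts in both EV libraries. SNB19 NC was thus at least 305-fold higher, taking a floor of 3 counts over the EV group. It was the only gene of the set with 0 counts in a control group. ADM had 9.65, 10.8 and 10.6 CPM in NC and 80.3 and 54.9 CPM in EV. PFKL, at 101, 98.9 and 100.5 CPM in NC and 485 and 275 CPM in EV, and the repressor BHLHE40, at 61.9, 60.5 and 53.4 CPM and 137 and 272 CPM, had no NC library as high as an EV library. SLC2A3 had 116 and 137 CPM in EV, above its NC values given earlier. Of these and the others that differed, ADM (-2.71), SLC2A3 (-2.53), PFKL (-1.93), CA9 (-1.88), CA12 (-1.86) and BHLHE40 (-1.81) were lower in SNB19 on the log2 scale, and SLC2A1 (1.24) was higher. Without EV 1, CA9 was -0.75 and the rest were -2.42, -2.64, -1.47, -2.19, -2.22 and 1.00 in the same order. HIF1A (-0.21) and EPAS1 (-0.67) did not pass with both EV libraries, and both passed without EV 1, at -0.54 and -1.17.

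By mean FPKM in NC, ENO1 (995 ± 22), PKM (757 ± 3.3) and GAPDH (754 ± 9) stood at the top of the set (SD, n = 3), and PKM and GAPDH did not differ beyond their spread. After silencing, PKM (343 ± 26) lay below GAPDH (607 ± 16). In the OE libraries ENO1 stayed highest (854 ± 62, SD, n = 2), and the 38 genes summed to 2917 and 3093 FPKM against 4455 and 4314 in EV. In SNB19 the sums were 4117 to 4137 FPKM in NC and 3910 to 3997 in siMEOX2. ALDOA was near the bottom of the set, at 0.477 ± 0.2 FPKM in NC, and its counts are uncertain because an annotated coding gene overlaps it on the same strand. ALDOC, GPI, PGK1, ENO2, EGLN3 and PFKFB4 also overlap another coding gene on their own strand. CA9, SLC16A3, P4HA2, TPI1, PFKM, ANKRD37, BNIP3L and PGK1 overlap one on the opposite strand, which a kit without strand cannot separate.

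Further HIF target genes, taken from a list outside the set, rose in SNB19 in 11 of 24 tested (45.8%, against 6.99% of all genes) and fell in 0 (against 8.75%). By unadjusted p in edgeR 1 was lower (PLOD1), which DESeq2 called. ANGPTL4, a secreted inhibitor of lipoprotein lipase, rose by 2.04 on the log2 scale, HILPDA, a lipid droplet protein, by 1.95, and STC2, a secreted glycoprotein, by 1.82. The paper had already picked ANGPTL4 from these data as a candidate gene downstream of MEOX2, so its change here is not independent. In U87, 3 of the 24 rose (against 11.3% of all genes) and 10 fell (41.7%, against 14.9%). Of the 24 values in U87, 9 were above 0 with all libraries, 7 without EV 1 and 12 without EV 2. MIR210HG, the host transcript of miR-210, had -5.28, PPFIA4, a liprin, -3.96 and ANGPTL4 -3.58, all past the threshold, and -4.38, -4.30 and -2.63 without EV 1. Of 29 other genes of glucose metabolism tested, 3 rose and 3 fell in SNB19 (10.3% each, near the shares of all genes), with PCK2 at 1.61 and SLC2A4 at 1.11, and 1 rose (3.45%) and 10 fell (34.5%) in U87, with PDK3 at -1.65 and BPGM at -1.30 (-1.72 and -1.34 without EV 1). Of these 29 values in U87, 6 were above 0 with all libraries, 10 without EV 1 and 7 without EV 2. The medians of these lists were 0.41 and -0.10 in SNB19 and -0.12 and -0.64 in U87. In U87 they moved to -0.25 and -0.13 without EV 1 and to -0.028 and -0.64 without EV 2.

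Of 16 regulators of the HIF pathway, 1 rose (6.25%, against 6.99% of all genes) and 4 fell (25%, against 8.75%) in SNB19. In U87, 3 rose (18.8%, against 11.3%) and 0 fell (against 14.9%). Their median log2 fold change in U87 was 0.42, and 0.29 without EV 1 and 1.06 without EV 2. Over all genes it was -0.02, 0.05 and 0.05 in the same order. ELOB and RBX1 had values below 0 in U87 at an unadjusted p below 0.05 in edgeR with all libraries, and DESeq2 called these 2 lower. MYC rose in both lines, by 1.33 in SNB19 and 1.55 in U87 (1.39 without EV 1). TXNIP, an inhibitor of glucose uptake, was lower in siMEOX2 by a log2 fold change of -0.96 and higher in OE by 1.44 (1.24 without EV 1). ARRDC4, its relative, gave -1.41 in SNB19, and CITED2, which competes with HIF for a coactivator, gave 0.97 in U87 (0.75 without EV 1).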

How the data were processed

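Poly-A RNA from 10 libraries was sequenced as 150 base paired reads with a kit that is not described as stranded. The authors deposited a table of raw counts per gene and of FPKM, and the submitters' processing notes name HISAT2, HTSeq 0.11.2, DESeq2 1.26.0 and GRCh38. FPKM, as deposited, equals the count divided by gene length and by the library's total. All 34567 identifiers matched GENCODE 29.

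Counts were tested with edgeR 4.0.16 (R 4.3.3; TMM, filterByExpr, quasi-likelihood, 1 fit with 4 groups, Benjamini-Hochberg over 17312 genes). DESeq2 1.42.0 and limma 3.58.1 on log2(FPKM + 1) were alternatives, and the scripts were tested on simulated data. Promoters come from RefSeq, and motifs were searched as letters.

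The genes and lists were chosen with earlier results of these data known. Values per library are given for HIF1A, EPAS1, CA9, SLC2A1, LDHA, PGK1 and GAPDH and for the 8 largest changes called per comparison. For each further list, up to 3 of the largest changes are given as fold changes, where 1 gene is not reported here. Other genes of the set are named with fewer values.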

Additional observations from a re-analysis of the deposited data

Results flagged for a closer look

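The change from the lower to the higher MEOX2 arm differed between SNB19 and U87 for 23 of the 38 genes. The threshold was an adjusted p below 0.05 in edgeR's test of that difference, which is a contrast over all 4 groups. The 17 genes with a positive difference were 44.7% of the set against 14.2% of all genes tested. The 6 with a negative one were 15.8% against 10.2%. Values are log2 changes in SNB19 minus those in U87, with the value without EV 1 in parentheses. All 23 kept this call without EV 1 and without EV 2. With any 1 of the other 8 libraries left out, 4 to 7 of them lost it: GPI, KDM3A, PFKL and TPI1 in all 8 cases and HIF1A in 7, joined by HK1 without either OE library and PGK1 without OE replicate 1.

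Among the glycolytic enzymes the value was positive for 10. These were PKM at 2.28 (1.97), ALDOC at 2.26 (2.08), LDHA at 1.74 (1.53), TPI1 at 1.42 (0.58), ENO2 at 1.37 (1.20), GAPDH at 1.06 (0.93), PFKL at 1.01 (0.50), GPI at 0.87 (0.51), PGK1 at 0.81 (0.74) and HK1 at 0.77 (0.61). PKM was higher with more MEOX2 in SNB19 and lower in U87. GAPDH had the same pattern in its values, at 0.40 in SNB19, short of the threshold in the joint fit, and -0.66 in U87. The remaining enzymes named here changed more in U87 than in SNB19. Among the remaining genes it was positive for 7. These were CA9 at 9.12 (7.94), SLC16A3 at 3.08 (2.99), PFKFB4 at 2.00 (1.88), CA12 at 1.67 (1.95), BNIP3 at 1.30 (0.89), P4HA2 at 1.11 (1.24) and P4HA1 at 0.98 (0.86). CA9, SLC16A3 and PFKFB4 are genes of pH control, lactate export and glycolytic control, and each fell by more than 5-fold in the OE libraries.

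The value was negative for 6. These were HK2 at -2.51 (-2.03), SLC2A3 at -1.92 (-1.86), ADM at -1.73 (-2.08), KDM3A at -1.21 (-0.84), MXI1 at -1.11 (-1.07) and HIF1A at -1.01 (-0.74). HK2, a hexokinase, and SLC2A3, a glucose transporter, were higher in both manipulated groups than in their controls. Their relatives differed. SLC2A1 was 0.34 in siMEOX2 and -0.12 in OE against the controls, neither past the threshold. HK1 was 0.06 and -0.83, and only the fall in OE passed. Line, delivery and control differ together between the arms and cannot be told apart in this difference.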

How the results depend on the processing

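Named values kept their direction in most settings, and the exceptions follow. With all libraries, SLC2A1 in U87 was -0.12, but 0.054 when scaled by library size alone, 0.12 by limma on log2(FPKM + 1), -0.31 without EV 1 and 0.19 without EV 2. Between the control groups HIF1A was -0.21 but 0.093 by library size, 0.20 by limma, -0.54 without EV 1 and 0.17 without EV 2. PGK1 was -0.34 but 0.021 by library size and 0.035 by limma, and EPAS1 was -0.67 but -1.17 without EV 1 and 0.065 without EV 2.

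In SNB19 2725 genes were called, 8683 with the lines fitted separately, and 1148 to 1507 with 1 library left out. Of the set, 7 rose and 2 fell, against 22 and 4 with the lines fitted separately, 3 and 1 by the study's rule (unadjusted p below 0.05 and more than 2-fold), and 3 to 5 and 1 with 1 library left out. DESeq2 gave 4 lower, and library size scaling and limma gave 1. In U87 4538 genes were called, 0 with the lines fitted separately (4 libraries) and 1553 to 10929 with 1 library left out. Of the set, 6 rose and 19 fell, against 0 and 0 with the lines fitted separately, 2 higher by the study's rule and 2 to 11 higher with 1 library left out. Between controls, 5 higher and 17 lower became 9 and 10 by library size, 10 and 10 by limma, 2 and 9 by the study's rule, and 3 to 8 higher with 1 library left out. For the difference between lines, 4229 genes became 2265 to 10435 with 1 library left out, and 6 lower became 4 to 11. The cause of these differences between settings was not tested.

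Library size scaling moved the split of higher and lower calls over all genes from 1210 and 1515 to 1310 and 987 in SNB19, from 1951 and 2587 to 2022 and 1771 in U87, from 4858 and 4985 to 6008 and 3300 between controls, and from 2458 and 1771 to 1564 and 2064 for the difference between lines. It moved the median of all genes by 0.16 in U87, 0.35 between controls and -0.29 for the difference.

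The replicate numbers did not pair the libraries: deviations of same-numbered SNB19 libraries correlated at -0.01, -0.04 and 0.08, and those of U87 at -0.28. With the number as a replicate block, 972 genes were called in SNB19 (3 of the set higher and 1 lower), 2126 in U87 (3 higher) and 2215 for the difference (11 of the set higher). With the pairing crossed in U87, added after seeing the data, 3710 genes were called, with 5 of the set higher and 19 lower.

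Counts per kilobase were not run, although a gene length follows from the deposited counts and FPKM. EGLN3 in U87, at 0 or 1 count, is limited by depth, and 2 libraries a group limit every U87 value.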
